A study of Mus musculus with 13 samples.

Results

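The 6 microRNAs described here were the 3p arms of let-7 hairpins with enough counts to be tested in mouse plasma: mmu-let-7b-3p, mmu-let-7c-1-3p, mmu-let-7d-3p, mmu-let-7e-3p, mmu-let-7f-1-3p and mmu-let-7i-3p. They were chosen by name, as 3p arms of let-7 hairpins, out of 1907 mature miRNAs in the count table. Each was set against the count of its own 5p arm. All 6 passed the filter on low counts, as did 368 of the 1203 miRNAs with any count. A further 6 arms of the same kind in the table (let-7a-1-3p, let-7a-2-3p, let-7c-2-3p, let-7f-2-3p, let-7g-3p and miR-98-3p) are given at the end.

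Small RNA was sequenced from plasma of 13 male mice, collected at the time point labelled T16. The groups were 3 mdx mice given Givinostat, a histone deacetylase inhibitor, by gavage at 37.5 mg/kg in 0.5% methylcellulose for 15 weeks (mice 31, 34 and 35), 4 mdx mice given 0.5% methylcellulose alone (vehicle, mice 40 to 43), 3 untreated mdx mice (naive mdx, mice 36, 37 and 39) and 3 untreated wild-type mice (naive wt, mice 86, 89 and 95). All mdx mice carried the Dmd mdx allele, a whole-body loss of dystrophin, on the C57BL/10ScSn background, the wt mice were C57BL/10J, and all were bought at 7 to 8 weeks of age. The strain label of each library reads C57BL/10J, so genotype was taken from the titles and the design text.

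A let-7 hairpin is cut by Dicer into a short duplex with a 5p and a 3p strand. The 5p strand, which carries the let-7 seed, is the one usually loaded into Argonaute, represses growth-promoting mRNAs such as Ras and Hmga2 transcripts, and accumulates as cells differentiate. The 3p strand is called the passenger strand because most of it is degraded, and the balance of the strands, the arm ratio, can differ between tissues.

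The 6 mature 3p sequences are shown because their seeds, unlike the seed common to the 5p arms, mostly differ. All 6 matched RefSeq (GRCm38.p6), all are 22 bases long, and capitals mark the seed, bases 2 to 8.
mmu-let-7b-3p: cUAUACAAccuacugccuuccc
mmu-let-7f-1-3p: cUAUACAAucuauugccuuccc
mmu-let-7d-3p: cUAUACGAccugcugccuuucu
mmu-let-7e-3p: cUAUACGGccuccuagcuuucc
mmu-let-7c-1-3p: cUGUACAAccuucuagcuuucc
mmu-let-7i-3p: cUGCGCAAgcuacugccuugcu
The seed of mmu-let-7b-3p and mmu-let-7f-1-3p was the same and was shared by 5 mouse miRNAs in the RefSeq table, the others being let-7a-1-3p, let-7c-2-3p and miR-98-3p, while the seeds of the remaining 4 members were each held by 1 miRNA only. Members differed from each other at 2 to 11 of 22 positions, fewest between mmu-let-7b-3p and mmu-let-7f-1-3p. Reads of miRNA length were mapped with no mismatch. Longer reads, which the paper describes as mainly other RNA species, could carry at most 2.

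The 5p strands of the hairpins with the most abundant and the most changed 3p arm are shown for comparison, again with the seed in capitals.
mmu-let-7d-5p: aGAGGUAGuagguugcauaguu
mmu-let-7f-5p: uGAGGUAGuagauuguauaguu
All 6 own 5p arms carried this same seed. The let-7f-5p sequence comes from the hairpins Mirlet7f-1 and Mirlet7f-2, and let-7c-5p from Mirlet7c-1 and Mirlet7c-2, so for mmu-let-7f-1-3p and mmu-let-7c-1-3p the denominator of the arm ratio holds the 5p product of an additional hairpin.

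The hairpins Mirlet7d (chr13:48536012-48536114) and Mirlet7f-1 (chr13:48537829-48537917), both on the minus strand of chromosome 13, lie 1714 bases apart in exons of the lincRNA 6720427I07Rik in GENCODE vM21 (GRCm38), together with Mirlet7a-1. They are printed from RefSeq with both arms in capitals, the 5p arm first, because the 3p arms they give were the most abundant and the most changed.
Mirlet7d: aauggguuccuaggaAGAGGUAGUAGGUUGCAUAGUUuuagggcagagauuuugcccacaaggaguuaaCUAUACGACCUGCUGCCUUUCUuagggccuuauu
Mirlet7f-1: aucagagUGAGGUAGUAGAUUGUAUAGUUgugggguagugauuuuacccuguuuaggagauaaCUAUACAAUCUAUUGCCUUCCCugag
Of the other hairpins, Mirlet7b (chr15:85707319-85707403, plus strand) lies in an exon of Lncppara, 621 bases from Mirlet7c-2. Mirlet7c-1 (chr16:77599657-77599750, plus strand) lies in an intron of Mir99ahg, Mirlet7e (chr17:17830352-17830444, plus strand) in an intron of Spaca6, and Mirlet7i (chr10:122985640-122985724, minus strand) in an exon of D630033A02Rik.

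Libraries held 1167161 to 2899315 counts, and no library was a copy of another in its group (chi-square per degree of freedom of at least 104.5). The plasma of the groups differed widely. The summed muscle list (5 miRNAs, chiefly miR-206-3p) took 28.3 to 39.7% of counts in naive mdx mice and 0.703 to 2.08% in naive wt mice, and the liver list (4 miRNAs, chiefly miR-122-5p) 1.91 to 11.4% in naive mdx mice and 38.8 to 65.5% in naive wt mice. In Givinostat and vehicle mice the muscle list took 37.9 to 46.7% and 35.5 to 42.6%, and the liver list 3.36 to 6.69% and 3.29 to 16.6%. No marker of either list was at 0 in any library. The red cell ratio, miR-451a over miR-23a-3p on the log2 scale, was taken as an index of red cell content. It was -1.54 to -0.69 in Givinostat mice and -2.13 to -1.67 in vehicle mice. In naive mdx mice it was -2.68 to -1.80 and in naive wt mice -0.11 to 0.11. It thus separated the genotypes completely, but it also depends on miR-23a-3p. The log2 fold change of miR-451a itself in naive mdx over naive wt was -1.17. By share of counts the summed red cell list overlapped between genotypes. It took 0.411 to 0.691% in naive mdx mice, 0.416 to 1.09% in vehicle mice and 0.414 to 0.849% in naive wt mice. On the scale of the levels given below, in counts per 1e+06, the list was 4311 to 5048 in naive mdx mice. In naive wt mice it was 5649 to 7118, without overlap. Vehicle mice (4877 to 10323) and Givinostat mice (6264 to 7308) overlapped naive wt on that scale. Of the 5 red cell miRNAs 3 were lower and 1 (miR-486a-5p, also made in muscle) was higher in naive mdx than in naive wt mice.

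The arms differed greatly in level. Since all 6 are of equal length, their CPM (counts per 1e+06 counts of a library scaled by the trimmed mean of M values, TMM) can be ordered, although ligation bias between sequences was not measured. In naive mdx mice mmu-let-7d-3p averaged 4769 ± 689 CPM (SD, n = 3), mmu-let-7b-3p 104 ± 23.6, mmu-let-7f-1-3p 55.3 ± 27.9, mmu-let-7i-3p 18.7 ± 1.63, mmu-let-7e-3p 11.3 ± 4.61 and mmu-let-7c-1-3p 10.1 ± 0.471 CPM. In this order only mmu-let-7e-3p and mmu-let-7c-1-3p overlapped between neighbours. In naive wt mice the order was mmu-let-7d-3p at 2077 ± 487 CPM, mmu-let-7b-3p at 60.8 ± 11.02, mmu-let-7f-1-3p at 14.6 ± 2.21, mmu-let-7e-3p at 12.6 ± 2.39, mmu-let-7i-3p at 9.15 ± 0.302 and mmu-let-7c-1-3p at 5.44 ± 0.831 CPM (n = 3), with overlap between mmu-let-7f-1-3p and mmu-let-7e-3p.

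The first comparison, naive mdx with naive wt, asked how dystrophin deficiency alters plasma miRNAs. By level, 4 of the 6 passenger arms were higher in naive mdx plasma and none was lower, whereas all 6 own 5p arms were lower. The 3p arms of the hairpins on chromosome 13 and of let-7i and let-7b rose by 0.77 to 1.92 on the log2 scale. In plasma, the number of cells that released a miRNA and the amount released per cell cannot be told apart.

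The miRNA mmu-let-7d-3p, by far the most abundant passenger arm, had 5564, 4346 and 4397 CPM in naive mdx mice, against 2636, 1748 and 1847 CPM in naive wt mice. The groups did not overlap, and the lowest naive mdx mouse stood well above the highest wt mouse. The log2 fold change was 1.20 (SE 0.27, edgeR quasi-likelihood adjusted p = 0.00179).

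The levels of mmu-let-7f-1-3p were 29.4, 84.8 and 51.6 CPM in naive mdx mice, against 17.1, 12.97 and 13.6 CPM in naive wt mice. The naive mdx mice were spread out among themselves, mouse 37 being the highest of all 13, but all lay above wt. The fold change of 1.92 (SE 0.35, edgeR adjusted p = 0.000341) ranked 52 of 368 from the top.

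The rarer mmu-let-7i-3p had 16.9, 19.1 and 20.1 CPM in naive mdx mice (27, 27 and 37 counts), against 9.49, 9.02 and 8.93 CPM in naive wt mice (15, 16 and 19 counts). Both groups were tight and did not overlap (log2 fold change 1.03, SE 0.31, edgeR adjusted p = 0.0132). The call was lost with no filter (adjusted p = 0.0970), with 2 groups only (0.0634) and with library totals without miR-122-5p (0.406).

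For mmu-let-7b-3p, the values were 131, 94.0 and 86.9 CPM in naive mdx mice, against 69.6, 64.3 and 48.4 CPM in naive wt mice. Again the groups were apart, by a smaller step (0.77, SE 0.28, edgeR adjusted p = 0.0334). This call was lost without naive mdx mouse 36 (adjusted p = 0.0763), wt mouse 89 (0.0557) or wt mouse 95 (0.0965), and also with upper-quartile scaling (0.0814), no filter (0.128), 2 groups only (0.0998) and library totals without miR-122-5p (0.775).

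The remaining arms did not pass the test of level. The values of mmu-let-7c-1-3p were 10.6, 9.89 and 9.77 CPM in naive mdx mice (14 to 18 counts), against 5.70, 4.51 and 6.11 CPM in naive wt mice (8 to 13 counts). The groups were apart here too (log2 fold change 0.88, SE 0.36, edgeR adjusted p = 0.0563). When vehicle mouse 40, 41 or 43 was left out, the fold change was 0.98 and the edgeR adjusted p 0.0385 to 0.0413. Vehicle mice share in the filter, the scaling and the estimate of spread. For mmu-let-7e-3p the groups overlapped, at 14.4, 13.4 and 5.97 CPM in naive mdx mice against 13.9, 14.1 and 9.87 CPM in naive wt mice (-0.17, SE 0.39, edgeR adjusted p = 0.733).

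**Figure D1:**
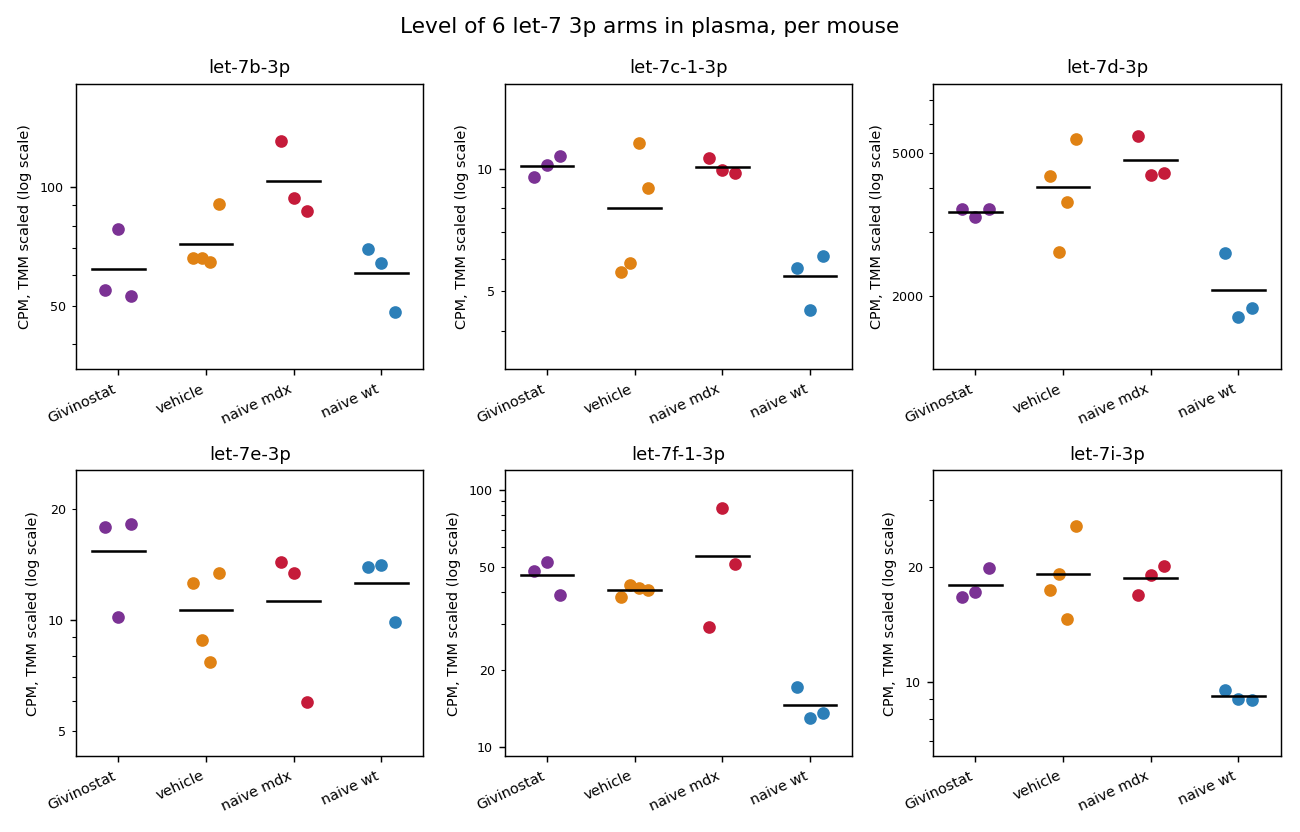
Level of each passenger arm in each mouse, in TMM-scaled CPM on a log axis, with points for mice and a black bar for the group mean. The naive mdx points lie above the naive wt points for every arm except let-7e-3p, as in 29.9% of the 368 miRNAs tested. The vehicle value of let-7b-3p set apart from the other 3 is 90.9 CPM.

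Counts of this size must be read against the whole table, where 43.5% of the 368 miRNAs were called, 26.9% higher and 16.6% lower in naive mdx. By level 5 of the 6 members were higher without overlap between the groups, all but mmu-let-7e-3p. So were 29.9% of the 368 miRNAs, while 27.7% were lower without overlap. The median log2 fold change was 0.95 over the members, 0.04 over all miRNAs tested and -1.11 over the 6 own 5p arms. With scaling by library totals without miR-122-5p the median of all miRNAs moved by -0.66, that of the members fell to 0.27, and 1 of the 6 (mmu-let-7f-1-3p) was still called. Relative to the median of all miRNAs the members stood at 0.92 in TMM and 0.89 in that scaling.

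Among the own 5p arms, the broadly expressed let-7b-5p fell to 3342 ± 249 CPM in naive mdx mice, against 6792 ± 91.3 CPM in naive wt mice (SD, n = 3 each). The fall was 1.02 (SE 0.22, edgeR adjusted p = 0.00150), and the groups were clearly apart. The largest fall of these 6 was that of let-7f-5p (3325 ± 1203 CPM in naive mdx and 10491 ± 2262 CPM in naive wt, log2 fold change -1.66, SE 0.37, edgeR adjusted p = 0.00194). Together with let-7a-5p, let-7g-5p and miR-98-5p, 8 of the 9 5p arms tested were lower and none was higher, let-7g-5p missing the threshold (-0.61, edgeR adjusted p = 0.0747). Of all 368 miRNAs tested, 16.6% were called lower and 26.9% higher.

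**Figure D2:**
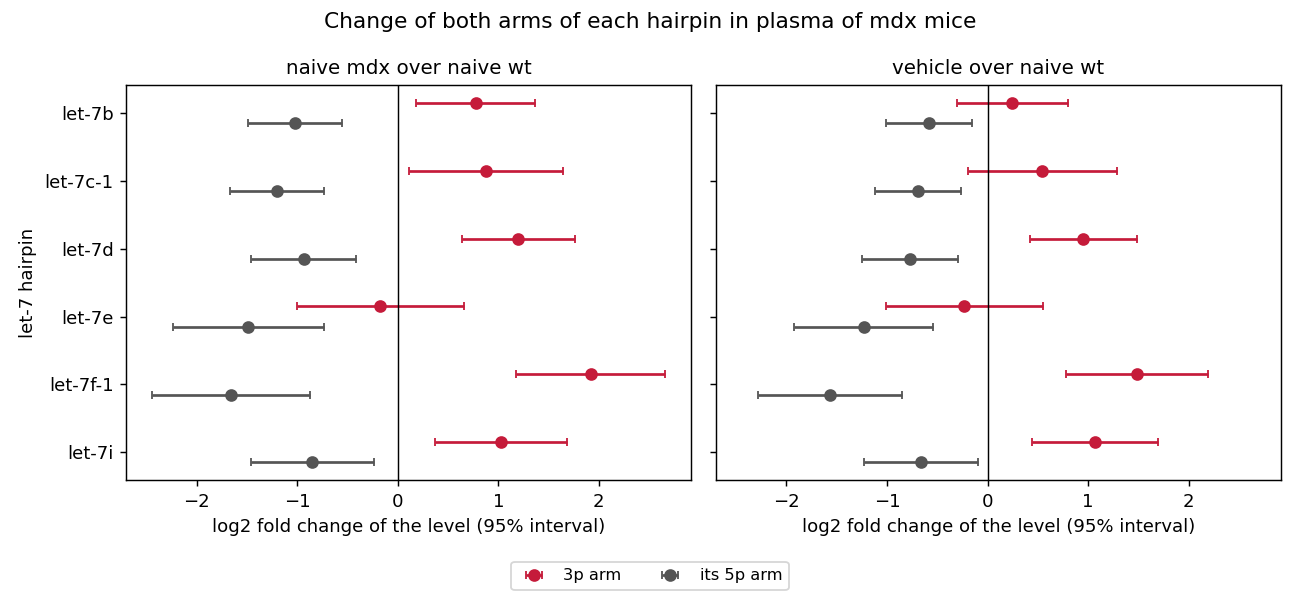
Log2 fold change of the level of each 3p arm (red) and of its 5p arm (grey), with 95% intervals from edgeR, for naive mdx over naive wt on the left and vehicle over naive wt on the right. Of the 3p arms 4 were called higher on the left and 3 on the right, and of the 5p arms 6 and 5 were called lower. Of all 368 miRNAs tested, 26.9% and 24.2% were called higher, and 16.6% and 23.1% lower.

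The arm ratio compares the strands of a hairpin within a library and so does not depend on how libraries are scaled to each other. It was tested as log2 of 3p over 5p counts, with 0.5 added to each, over 104 pairs of arms with limma. In naive mdx plasma the ratio was higher than in naive wt plasma for 5 of the 6 members, while 16.3% of the 104 pairs were called higher. The median difference was 1.97 over the members and 0.29 over all pairs.

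The let-7d hairpin was the only one of the 6 whose 3p arm outnumbered its 5p arm, and it did so in mdx mice only. There were 284, 301 and 222 counts of mmu-let-7d-3p per 100 counts of let-7d-5p in naive mdx mice, against 76.5, 45.3 and 61.7 per 100 in naive wt mice. Thus the 3p arm made up 69.0 to 75.1% of the let-7d counts in naive mdx mice and 31.2 to 43.3% in naive wt mice, the exact 95% binomial interval of the highest naive wt mouse being 42.3 to 44.3%. The same majority of 3p was seen in vehicle mice (54.8 to 76.2%) and Givinostat mice (59.3 to 67.4%), so that the more frequent let-7d strand was 3p in all 10 mdx mice and 5p in all 3 wt mice. The difference was 2.16 on the log2 scale (SE 0.36, limma adjusted p = 0.00119), the fifth highest of 104.

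The ratio of mmu-let-7f-1-3p differed most. Per 100 counts of let-7f-5p there were 1.49, 2.28 and 1.21 counts in naive mdx mice, against 0.211, 0.103 and 0.127 in naive wt mice. The lowest naive mdx mouse was far above the highest wt mouse. With 3.50 on the log2 scale (SE 0.42, limma adjusted p = 8.33e-05), a ratio of 11.3-fold, it was the highest of the 104 pairs.

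For mmu-let-7c-1-3p, which was rare beside its abundant partner, there were 0.0767, 0.0661 and 0.0804 counts per 100 of let-7c-5p in naive mdx mice, against 0.0186, 0.0141 and 0.0194 in naive wt mice. The groups were apart although they rest on 8 to 18 counts of the 3p arm a library (2.08, SE 0.40, limma adjusted p = 0.00187).

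For mmu-let-7i-3p the values were 0.367, 0.311 and 0.300 per 100 in naive mdx mice, against 0.0769, 0.0869 and 0.103 per 100 in naive wt mice (1.86, SE 0.40, limma adjusted p = 0.00329). For mmu-let-7b-3p they were 3.93, 3.03 and 2.41 per 100 in naive mdx mice, against 1.02, 0.936 and 0.724 per 100 in naive wt mice (1.79, SE 0.33, limma adjusted p = 0.00138). In neither pair did the groups overlap.

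The let-7e pair, with both arms rare, was the exception. There were 52.3, 47.5 and 12.6 counts of mmu-let-7e-3p per 100 of let-7e-5p in naive mdx mice, against 16.1, 10.8 and 13.5 per 100 in naive wt mice. Naive mdx mouse 39 lay among the wt mice, and the difference of 1.25 (SE 0.47) was not called (limma adjusted p = 0.0693). Without mouse 39 it was 1.90 (limma adjusted p = 0.00374), and with all libraries it was called with a pseudocount of 5 (1.25, limma adjusted p = 0.0272) and in edgeR with the 5p counts as an offset (1.34, adjusted p = 0.0456).

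With 3 mice against 3, the two-sided exact permutation test of the log2 ratio reached its smallest possible value, p = 0.1, for the 5 called members, and gave p = 0.3 for mmu-let-7e-3p. Those 5 were higher without overlap between the groups, as were 27.9% of the 104 pairs, while 12.5% were lower without overlap. When the red cell ratio was added as a covariate, none of the 6 was called by level or by arm ratio, and 1 miRNA of all 368 was called by level. The arm difference was then 0.47 for mmu-let-7d-3p and -0.043 (SE 1.06) for mmu-let-7i-3p. It was 1.45 for mmu-let-7b-3p, 1.22 for mmu-let-7c-1-3p and 1.71 for mmu-let-7f-1-3p. Over all alternatives, the lowest arm difference of mmu-let-7e-3p was -1.23. The part of the red cell ratio in these differences cannot be told apart from genotype.

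**Figure D3:**
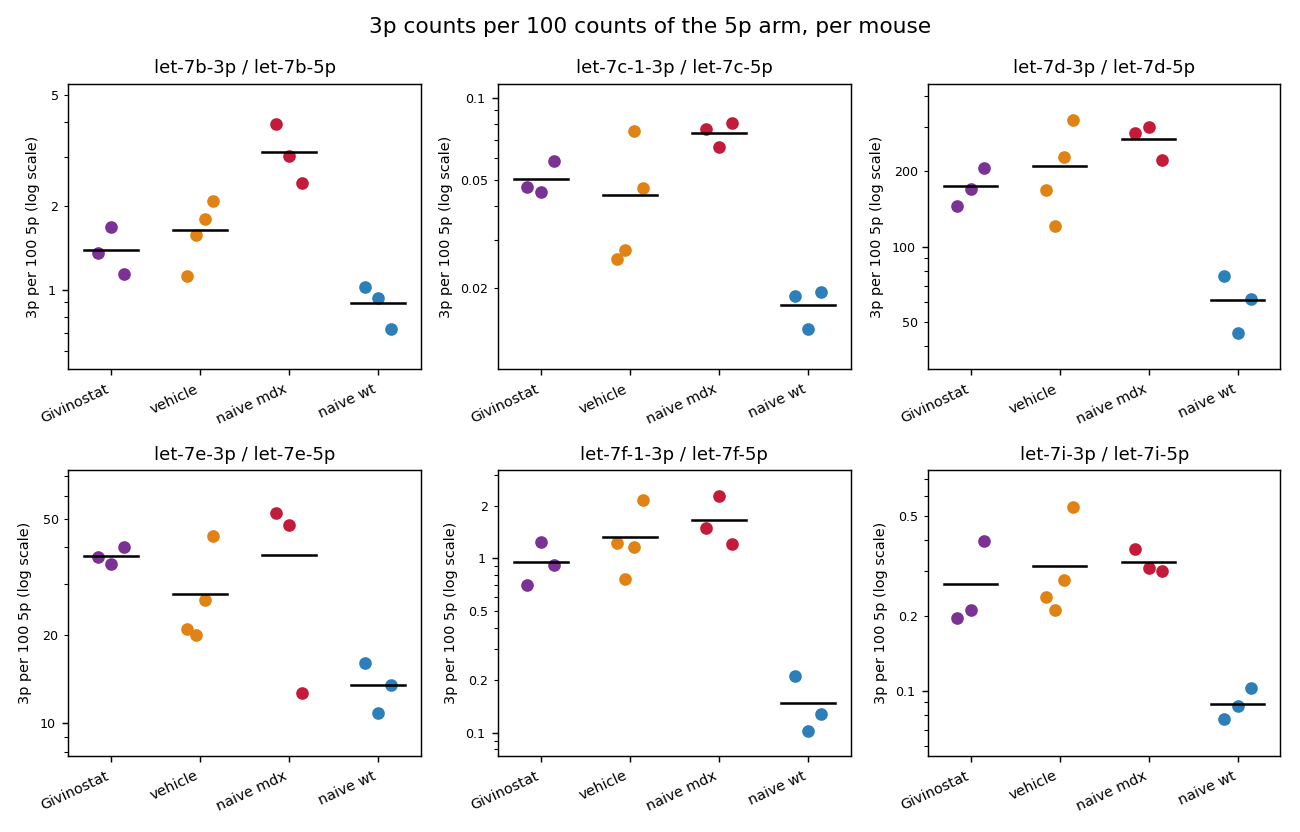
Counts of each 3p arm per 100 counts of its 5p arm in each mouse, on a log axis, with a black bar for the group mean. The mdx groups lie above naive wt in 5 of the 6 panels, as in 13.5% of the 104 pairs tested. In let-7d they pass 100, where both arms are equal.

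The vehicle mice, an independent set of mdx mice measured against the same naive wt mice, were compared with them next. By level 3 members were higher and none was lower (24.2% of miRNAs higher), and 5 of the 6 own 5p arms were lower (23.1% of miRNAs lower), let-7i-5p missing the threshold (-0.66, edgeR adjusted p = 0.0501). By arm ratio 4 members were higher, against 9.62% of pairs. The median difference in arm ratio was 1.46 over the members and 0.23 over all pairs. With library totals without miR-122-5p the median of all miRNAs moved by -0.86, no member was called higher by level and mmu-let-7e-3p was called lower (-1.08, edgeR adjusted p = 0.0207), and with the red cell covariate none was called by level or arm ratio.

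In vehicle mice mmu-let-7d-3p had 4306, 2656, 3642 and 5464 CPM, against 2636, 1748 and 1847 CPM in naive wt mice, the lowest vehicle mouse lying just above the highest wt mouse (log2 fold change 0.95, SE 0.25, edgeR adjusted p = 0.00543). Its ratio was 168, 121, 229 and 321 per 100 in vehicle mice, against 76.5, 45.3 and 61.7 per 100 in naive wt mice (1.72, SE 0.34, limma adjusted p = 0.00409). No vehicle mouse overlapped wt in either measure.

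The level of mmu-let-7f-1-3p was even among vehicle mice, at 38.4, 42.6, 41.5 and 41.0 CPM, against 17.1, 12.97 and 13.6 CPM in naive wt mice (1.49, SE 0.33, edgeR adjusted p = 0.00168). Its ratio was 1.22, 0.764, 1.17 and 2.16 per 100 in vehicle mice, against 0.211, 0.103 and 0.127 per 100 in naive wt mice. That difference, 3.13 (SE 0.40, limma adjusted p = 0.000111), was again the highest of 104.

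The level of mmu-let-7i-3p was 17.4, 19.1, 14.6 and 25.6 CPM in vehicle mice, against 9.49, 9.02 and 8.93 CPM in naive wt mice (1.07, SE 0.29, edgeR adjusted p = 0.00733). Its ratio was 0.238, 0.210, 0.276 and 0.543 per 100 in vehicle mice, against 0.0769, 0.0869 and 0.103 per 100 in naive wt mice (1.72, SE 0.37, limma adjusted p = 0.00519). Both measures were apart in every mouse. By level 3 members were higher in vehicle mice without overlap, as were 27.2% of the 368 miRNAs, while 25% were lower without overlap.

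For mmu-let-7c-1-3p the ratio was 0.0256, 0.0276, 0.0757 and 0.0467 per 100 in vehicle mice, against 0.0186, 0.0141 and 0.0194 per 100 in naive wt mice. Mice 40 and 41 were only just above wt. The call (1.20, SE 0.37, limma adjusted p = 0.0424) was lost in 10 of the 13 fits that left out 1 library. Among these fits the difference was as low as 0.90 without vehicle mouse 42. The limma adjusted p was as high as 0.145 without wt mouse 89. With these 2 groups only, the arm did not pass the filter on low counts and was not tested.

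The ratios of the last members were not called, although their groups did not overlap. For mmu-let-7b-3p there were 1.12, 1.57, 1.79 and 2.09 per 100 in vehicle mice, against 1.02, 0.936 and 0.724 per 100 in naive wt mice (0.86, SE 0.31, limma adjusted p = 0.0715, and 0.0350 without vehicle mouse 40). For mmu-let-7e-3p there were 20.9, 20, 26.3 and 43.8 per 100 in vehicle mice, against 16.1, 10.8 and 13.5 per 100 in naive wt mice (0.996, SE 0.44, limma adjusted p = 0.133, and 0.0498 without naive mdx mouse 39, which shares only in the filter and the estimate of spread). By level, the log2 fold changes over naive wt were 0.25 for mmu-let-7b-3p, 0.54 for mmu-let-7c-1-3p and -0.23 for mmu-let-7e-3p (edgeR adjusted p = 0.429, 0.197 and 0.596). The exact permutation p of the arm ratio was 0.0571 for every member, the smallest that 4 mice against 3 allow. All 6 were higher without overlap, as were 15.4% of the 104 pairs, while 11.5% were lower without overlap.

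**Figure D4:**
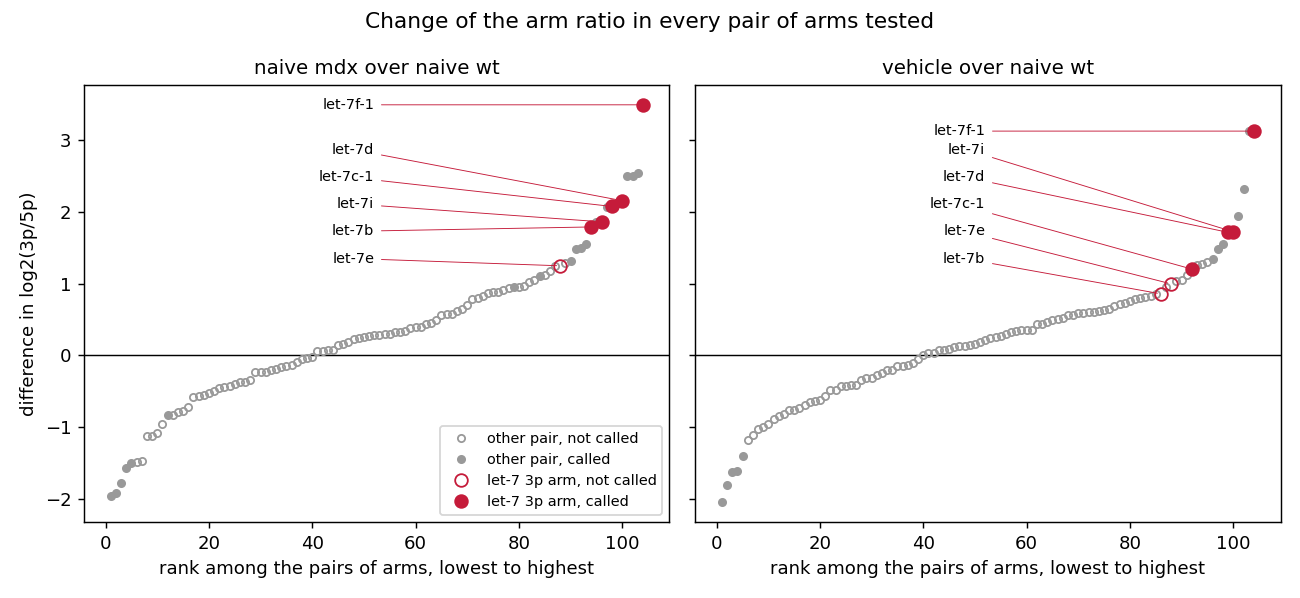
Difference in log2 arm ratio of every pair of arms tested, ordered from lowest to highest, for naive mdx over naive wt on the left and vehicle over naive wt on the right. Red circles are the 6 let-7 members, grey circles the other pairs, and filled circles are called. The let-7f-1 pair is the highest in both panels, with 3.50 and 3.13.

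Taking the 3 mdx groups side by side, every one of the 10 mdx mice had a higher arm ratio than every naive wt mouse for 5 of the 6 members, the exception being mmu-let-7e-3p. Over all pairs 13.5% did so. By level 3 of the 6 members (mmu-let-7d-3p, mmu-let-7f-1-3p and mmu-let-7i-3p) were higher in all 10 mdx mice, beside 21.2% of all miRNAs.

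The Givinostat comparison asked whether the drug shifts plasma miRNAs of mdx mice relative to vehicle. None of the 6 members was called by level, where 0.272% of miRNAs were called (1 of 368), and none by arm ratio, where 0% of pairs were called (3 of 104 at an unadjusted limma p under 0.05). The mmu-let-7d-3p levels were 3479, 3315 and 3493 CPM in Givinostat mice, all inside the vehicle range of 2656 to 5464 CPM. Its ratio was 146, 170 and 207 per 100 in Givinostat mice, against 168, 121, 229 and 321 per 100 in vehicle mice, again within their range. The log2 difference in arm ratio was -0.19 with a 95% interval of -0.91 to 0.54 (limma adjusted p = 0.931).

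Over the other members the differences in arm ratio ran between -0.42 for mmu-let-7f-1-3p (interval -1.27 to 0.43) and 0.49 for mmu-let-7e-3p (interval -0.45 to 1.42). For mmu-let-7f-1-3p the ratio was 0.697, 1.24 and 0.916 per 100 in Givinostat mice, against 1.22, 0.764, 1.17 and 2.16 per 100 in vehicle mice. All 6 members overlapped between the groups, and the exact permutation p was 0.229 to 0.686. Set beside naive wt, mmu-let-7i-3p stood at 0.196, 0.210 and 0.396 per 100 in Givinostat mice and at 0.0769 to 0.103 per 100 in naive wt mice, without overlap, a difference that was not tested.

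Vehicle mice were then set against naive mdx mice, which differ by repeated gavage with methylcellulose. No member was called by level or by arm ratio (0% of miRNAs and 0% of pairs, with 17 of 368 at an unadjusted edgeR p and 10 of 104 at an unadjusted limma p under 0.05). The lowest ratios relative to naive mdx were those of mmu-let-7b-3p, at 1.12, 1.57, 1.79 and 2.09 per 100 in vehicle mice, against 3.93, 3.03 and 2.41 per 100 in naive mdx mice. The groups did not overlap, as in 1.92% of the 104 pairs lower in vehicle mice, and the difference of -0.93 (interval -1.59 to -0.28) had an adjusted p of 0.414 in limma. That of mmu-let-7c-1-3p was -0.87 (limma adjusted p = 0.448), with overlap, and the other 4 lay between -0.44 and -0.14.

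The order of single mice within a group was then compared across the 6 hairpins. Of the 3 Givinostat mice, mouse 35 had the highest ratio for 4 members and mouse 34 the highest for 2 and the lowest for 2. Of the 4 vehicle mice, mouse 43 had the highest ratio for 5 of the 6 members and mouse 41 the lowest for 4, and of the 3 naive mdx mice mouse 39 had the lowest for 5. Over all 104 pairs vehicle mouse 43 was the highest in 44.2%, vehicle mouse 41 the lowest in 37.5% and naive mdx mouse 39 the lowest in 32.7%. Givinostat mouse 35 was the highest in 26.9% and the lowest in 41.3%, and mouse 34 the highest in 34.6% and the lowest in 30.8%. The red cell ratio was lowest of the vehicle mice in mouse 43 (-2.13), highest of them in mouse 41 (-1.67) and highest of the naive mdx mice in mouse 39 (-1.80). It was lowest of the naive mdx mice in mouse 37 (-2.68), whose arm ratio was the highest for 2 members and the lowest for 1. Naive mdx mouse 36 (-2.13) had the highest arm ratio for 3 members. For mmu-let-7d-3p the order of mice by arm ratio was exactly opposite to their order by red cell ratio in all 3 mdx groups, for mmu-let-7i-3p in 2, for mmu-let-7e-3p and mmu-let-7f-1-3p in 1, and for the other members in none. Of all 104 pairs 1 (0.962%) showed that order in 3 mdx groups, 3 (2.88%) in 2 and 21 (20.2%) in 1. In naive wt mice no member showed it. There wt mouse 89 had the lowest red cell ratio (-0.11). Its arm ratio was the lowest of the wt mice for 4 of the 6 members and for 34.6% of the 104 pairs. This description was chosen after the values were seen, and the part of red cell content in it was not tested.

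Levels of the members moved together in part. Over the 13 libraries, which share the group differences and the scaling, Pearson's r of log2 CPM was 0.84 between mmu-let-7f-1-3p and mmu-let-7i-3p and 0.82 between mmu-let-7d-3p and mmu-let-7i-3p. The neighbours on chromosome 13, mmu-let-7d-3p and mmu-let-7f-1-3p, gave 0.70, and mmu-let-7e-3p stayed between -0.13 and 0.04 with the other 5. The miRNAs outside the family with the most similar levels were miR-532-3p (r = 0.98) and miR-365-3p (0.97) for mmu-let-7d-3p, and miR-24-2-5p and miR-30a-5p (both 0.97) for mmu-let-7f-1-3p. They were miR-7689-3p (0.94) and miR-1843a-3p (0.92) for mmu-let-7i-3p, miR-425-5p (0.85) and miR-744-5p (0.81) for mmu-let-7b-3p, miR-6516-5p (0.84) and miR-5126 (0.81) for mmu-let-7c-1-3p, and only miR-26b-3p (0.61) and miR-8112 (0.54) for mmu-let-7e-3p.

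The hairpins of let-7c-1 and let-7e are made from transcripts that also give miR-99a, miR-99b, miR-125a and miR-125b-2. Of the 8 arms of these neighbours 7 were tested, and none was called in naive mdx over naive wt, where their log2 fold changes ran between -0.29 and 0.83 (lowest edgeR adjusted p = 0.0854), or in vehicle over naive wt (-0.11 to 0.82, lowest adjusted p = 0.0701). For example, miR-99a-5p differed by 0.09 (SE 0.24, edgeR adjusted p = 0.777) between naive mdx and naive wt mice, while let-7c-5p fell by 1.20 (SE 0.22, edgeR adjusted p = 0.000366). The let-7c-5p count also holds the product of Mirlet7c-2 on chromosome 15, so the fall cannot be assigned to the transcript of miR-99a.

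Of the passenger arms outside the 6, only miR-98-3p could be tested. It shares the seed of mmu-let-7b-3p, and its hairpin lies beside Mirlet7f-2 on the X chromosome. There were 40.4, 22.6 and 17.2 counts of miR-98-3p per 100 of miR-98-5p in naive mdx mice, against 5.21, 6.005 and 5.80 per 100 in naive wt mice, with no overlap (2.13, SE 0.47, limma adjusted p = 0.00423). In vehicle mice there were 23.0, 9.30, 28.0 and 38.03 per 100 (1.94 over naive wt, SE 0.44, limma adjusted p = 0.00658), and in Givinostat mice 14.9, 29.5 and 24.0 per 100. By level miR-98-3p was not called in naive mdx over naive wt (0.60, edgeR adjusted p = 0.169).

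The other 5 arms were near the limit of counting, at which 3 counts, the limit set by a count of 0 for counting error alone, equal 1.41 to 2.48 TMM-scaled CPM depending on the library. The counts per library were 0 to 5 for let-7g-3p, 0 to 8 for let-7a-2-3p and 0 to 10 for let-7f-2-3p. The sequences of let-7a-1-3p and let-7c-2-3p are identical, with 0 mismatches over 22 bases, so a read of one cannot be told from a read of the other. The table held 0 counts of let-7a-1-3p in every library and 1 count of let-7c-2-3p, in vehicle mouse 42, while let-7a-5p had 2014 to 10356 counts and let-7c-5p 19811 to 67045 counts a library. The hairpin Mirlet7a-1 lies 261 bases from Mirlet7f-1 in the same lincRNA. Reads of these identical arms may have been left out in counting, which was not tested, so the counts near 0 say little about either arm.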

How the data were processed

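Plasma small RNA libraries of 13 mice were analysed, grouped by the sample titles; animal numbers are not shared between groups, so tests were unpaired. The authors deposited unnormalized whole-number counts of 1907 mature miRNAs (miRBase 21), summed over isomiRs at each locus. Reads were mapped to GRCm38 (mm10); the submitters' processing notes list Bowtie 1.0.0, with cutadapt 1.4.2 and bcl2fastq 1.37.0, while the methods give Trimmomatic. There were no molecular identifiers, so the binomial intervals and the limits set by a count of 0 cover counting error only. The authors also deposited log2 values of the same counts, each the log2 count plus a constant per library, with low counts missing; these entered only the limma alternatives. All columns were matched to mice (0 unmatched).

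Counts were filtered with filterByExpr (minimum count 10), scaled by TMM and fitted with 1 mean per group over all 13 libraries by the edgeR 4.0.16 quasi-likelihood test under R 4.3.3. Arm ratios, log2 of (3p + 0.5)/(5p + 0.5), were fitted by limma 3.58.1 over 104 pairs with both arms tested, of 788 in the table; 9 of the 104 share an arm with another pair. A call needed an adjusted p (Benjamini-Hochberg, over all miRNAs or pairs) under 0.05; intervals of differences, from the spread between mice, are at 95%. Exact permutation tests were two-sided (SciPy 1.17.1, 24 tests of the arm ratio). Both fits were tested on simulated data. Alternatives were other scalings (RLE, upper quartile, library totals with and without miR-122-5p), filters, DESeq2 1.42.0, pseudocounts, fits of 2 groups only, a red cell covariate and leaving out each library. The named miRNAs were the 6 members, their 5p arms, the other let-7 passenger arms, miRNAs of the same transcripts and, for each member, the 2 miRNAs outside the family with the most similar log2 CPM. The summed marker lists of red cells, platelets and myeloid cells, muscle and liver were computed, of which the red cell list took 0.411 to 1.09% and the platelet and myeloid list 0.302 to 0.737% of counts in all libraries. The members and lists were chosen with earlier results of these data known.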

Additional observations from a re-analysis of the deposited data

Results flagged for a closer look

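The level of mmu-let-7b-3p was 90.9 CPM in vehicle mouse 43, against 64.6 to 66.3 CPM in the other 3 vehicle mice, and lay far from them by Dixon's test at the 95% level. The vehicle group, the only one of 4 mice, was tested for 12 sets of values (level and arm ratio of 6 members), of which 1 stood apart. Chance alone gives about 1 in 20 such groups.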

How the results depend on the processing

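The members called by level in naive mdx over naive wt numbered 4, against 1 with library totals without miR-122-5p, 2 with no filter, 2 with 2 groups only and 0 with the red cell covariate. It was 3 with upper-quartile scaling, where mmu-let-7b-3p was lost (adjusted p = 0.0814), and 5 with library totals and both limma fits of the deposited log2 values, where mmu-let-7c-1-3p was gained (0.0260, 0.0497 and 0.0480). In vehicle over naive wt they numbered 3, against 1 with library totals without miR-122-5p, which was mmu-let-7e-3p and lower (-1.08, edgeR adjusted p = 0.0207), and 0 with the red cell covariate. By arm ratio, 5 members were called in naive mdx over naive wt, against 3 with unshared arms only, 0 with the covariate, and 6 with a pseudocount of 5 or the edgeR offset, where mmu-let-7e-3p was gained (0.0272 and 0.0456), and 4 in vehicle over naive wt, against 2 with unshared arms only and 0 with the covariate. With unshared arms only, 4 members could be tested, since let-7c-5p and let-7f-5p belong to several hairpins. The arm difference of mmu-let-7i-3p in naive mdx over naive wt became -0.043 (SE 1.06) with the covariate, and those of the other called members were 0.47 to 1.71. The cause was not tested, and the covariate separates the genotypes. In the Givinostat and the gavage comparison, 0 members were called in every alternative that was run. Over all miRNAs, calls in naive mdx over naive wt split into 99 higher and 61 lower, against 58 and 153 with library totals without miR-122-5p, 118 and 23 with library totals and 82 and 96 with upper-quartile scaling. With the covariate 1 miRNA was called there, 2 were in vehicle over naive wt, and 0 arm pairs were in either. With unshared arms only, 15 and 9 pairs were called. For Givinostat over vehicle, 2 to 6 miRNAs were called in 9 alternatives, against 1. No paired analysis was possible because the groups share no animal numbers. The values of mmu-let-7c-1-3p, mmu-let-7e-3p and mmu-let-7i-3p rest on 8 to 40 counts of the 3p arm a library.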
